A study of Mus musculus with 8 samples.

Results

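The IL-6 family of cytokines and receptors, with the chemokine gene Cxcl2 added, was examined as 9 genes matched by exact symbol: Il6, Il11, Lif, Osm, Clcf1, Il6ra, Il6st, Osmr and Cxcl2. All 9 were among the 24421 genes of the count tables, 7 had at least 1 count, and 4 (Lif, Osm, Il6ra and Il6st) passed the filter on low counts and were tested among 10396 genes. The samples were 4 LKB1-deficient and 4 control (LKB1 wild type) mouse CD8+ T cell libraries, numbered 1 to 4 in each group. Naïve cells of both groups were stimulated for 48 hours on plates coated with antibodies against CD3 and CD28 and profiled by 3' RNA-seq, which counts reads near the ends of transcripts. The labels give neither the deleted allele, the driver of the deletion, nor the strain or age of the mice, and do not say whether replicates came from separate animals. P-values therefore measure the spread between these samples, which may be technical.

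Cytokines of this family signal through gp130, the shared receptor subunit encoded by Il6st. Ligand-specific chains such as the IL-6 receptor alpha chain (Il6ra), the LIF receptor (Lifr) and the oncostatin M receptor (Osmr) select the ligand, and the assembled receptor activates Janus kinases and the transcription factor STAT3, whose target Socs3 feeds back on gp130. Activated T cells are a known source of leukemia inhibitory factor (LIF) and oncostatin M (OSM), and CXCL2 is a neutrophil-attracting chemokine that acts through the receptor CXCR2. LKB1, the product of Stk11, switches on AMPK and related kinases. The comparison asks which of these genes differ between activated CD8+ T cells without LKB1 and those with it.

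The libraries held 3454388 to 6356125 gene counts in the LKB1-deficient group and 7090252 to 12211930 in the control group, so that low genes were measured less precisely in the LKB1-deficient cells. Of the tested genes 12.4% were higher and 10.1% lower in LKB1-deficient cells (1286 and 1051 genes, edgeR quasi-likelihood test, Benjamini-Hochberg adjusted p under 0.05). The split was 829 and 1576 when libraries were scaled by total counts and 1023 and 1446 with upper quartile scaling, and over all genes the median log2 fold change was then -0.16 and -0.10, against 0.00 with TMM scaling. Stk11 itself did not pass the test (log2 fold change -0.03 ± 0.18, SE, edgeR adjusted p = 0.911), and a 3' count need not detect a deletion elsewhere in the gene. The summed level of 8 T cell markers was 1675 to 2475 CPM in LKB1-deficient libraries and 2779 to 3271 CPM in controls, with Cd3d and Cd3g called lower and the other 5 tested markers not called. Cd28 was under the count filter, with 1 count in LKB1-deficient and 21 in control libraries. The 6 CD8 T cell markers summed to 6322 to 8961 CPM in LKB1-deficient and 5094 to 9024 CPM in control libraries, which overlapped, with Cd8a called lower (log2 fold change -0.76, edgeR adjusted p = 0.0156) and Runx3 higher (1.23, edgeR adjusted p = 0.00331). Cd4 stayed between 0 and 0.563 CPM in LKB1-deficient and between 0.27 and 1.17 CPM in control libraries. The unit CPM is a count scaled to a common library size, with TMM factors. In bulk RNA, fewer cells of a type and less RNA per cell cannot be told apart.

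Lif and Osm, the ligand genes with the most counts here, and Il6ra were higher in LKB1-deficient cells, and Il6st did not pass the test. Lif rose 3.0-fold, Osm 2.23-fold and Il6ra 2.17-fold, and in each of these genes every LKB1-deficient library lay above every control library. Of the 4 tested members 3 were called higher and none lower, against 12.4% and 10.1% of all tested genes. No tested member was lower at an unadjusted p under 0.05 or with DESeq2 or limma-voom. Il6, Il11 and Cxcl2 had between 1 and 17 counts per library, and Clcf1 and Osmr had none. Over all tested genes the groups did not overlap in 26.1%, with LKB1-deficient libraries higher in 12% and lower in 14.1%.

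**Figure D1:**
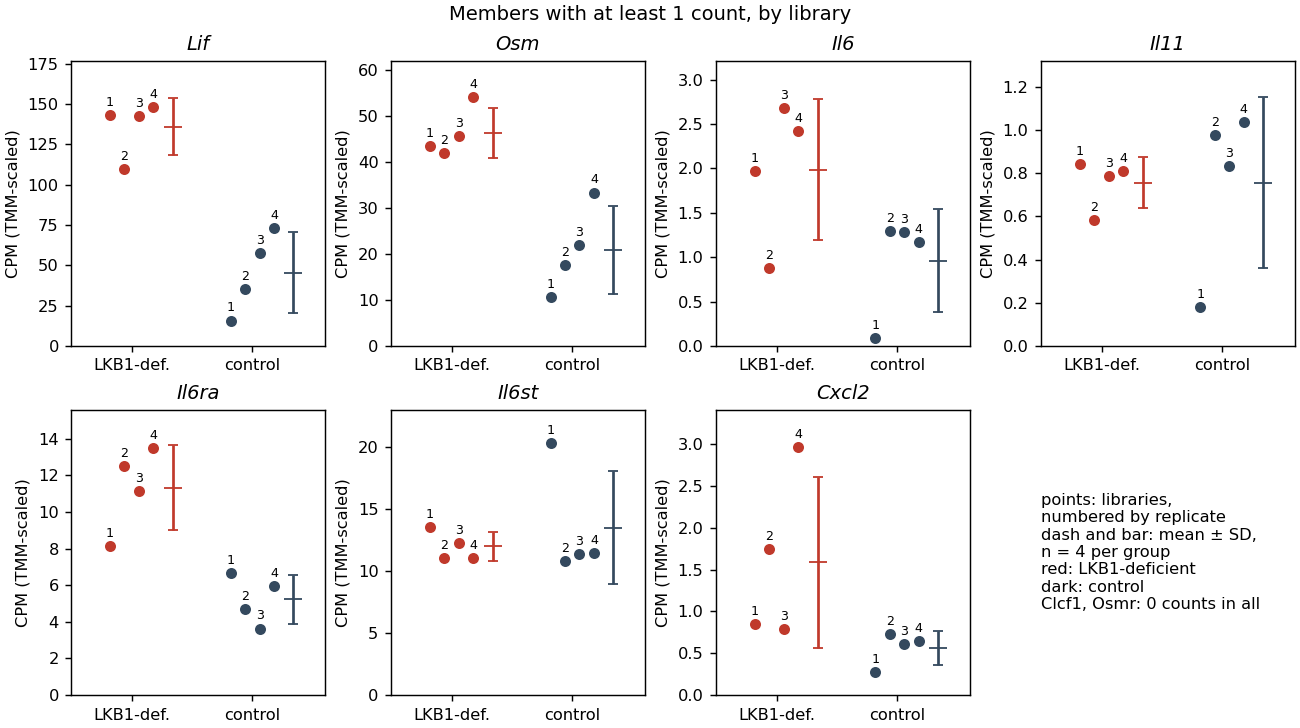
Level of each member with at least 1 count in every library, in CPM on linear axes from 0, with LKB1-deficient libraries (red) left of controls (dark), numbered by replicate, and mean ± SD beside them (n = 4 per group). For Lif the LKB1-deficient libraries sit between 109.9 and 148 CPM and the controls between 15.7 and 72.9 CPM, while the groups overlap for Il6, Il11 and Il6st.

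Among the ligands, Lif encodes a cytokine that binds the LIF receptor and gp130 and is best known for keeping mouse embryonic stem cells undifferentiated. The gene (ENSMUSG00000034394.14) is on the plus strand of chromosome 11, at 4257557 to 4272514 in GRCm38, the assembly also called mm10. Lif had 509, 377, 907 and 550 counts in LKB1-deficient replicates 1 to 4, against 175, 437, 764 and 561 in control replicates 1 to 4. Scaled to library size this was 143, 109.9, 143 and 148 CPM in LKB1-deficient libraries and 15.7, 35.5, 57.8 and 72.9 CPM in controls. The raw counts of the groups overlapped and the scaled values did not, as the LKB1-deficient libraries were shallower. The mean was 136 ± 17.6 CPM in LKB1-deficient and 45.5 ± 25.1 CPM in control cells (SD, n = 4 each), with a log2 fold change of 1.58 ± 0.37 (approximate SE, derived from the F statistic, edgeR adjusted p = 0.0176). With all libraries thinned to 3454388 gene counts the log2 fold change was 1.56 (edgeR adjusted p = 0.019).

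Because Lif moved most among the tested members, the stretch before its start is shown, from 250 to 12 bases upstream of the RefSeq start site (chr11:4257318-4257556, plus strand, GRCm38.p6). Capitals mark the match to the AP-1 motif TGANTCA, in which N is any base.
Lif: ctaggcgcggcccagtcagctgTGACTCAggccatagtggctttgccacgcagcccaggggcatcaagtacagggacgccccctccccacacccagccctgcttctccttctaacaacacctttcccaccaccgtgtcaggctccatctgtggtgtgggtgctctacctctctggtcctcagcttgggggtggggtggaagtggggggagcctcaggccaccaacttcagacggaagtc
The window was searched on both strands for 4 motifs, and the AP-1 letters occurred 1 time, with no overlap with another match. The motif occurred in 6.6% of 32851 windows of the same 239 bases in the RefSeq promoter table. The STAT motif TTCNNNGAA (6.7% of windows), the NF-kB motif, GGG then any 2 bases then TTTCC (1.3%), and the cyclic AMP response element core TGACG (16.8%) had no match in this window. These are matches of letters and not evidence of binding. Entries existed for 7 of the 9 members.

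Osm encodes oncostatin M, which is made by activated T cells and myeloid cells and signals through gp130 with the OSM receptor in mice. It lies next to Lif on chromosome 11 (4236420 to 4241026, plus strand). Osm reads came to 155, 144, 290 and 201 in LKB1-deficient replicates 1 to 4 and 118, 216, 290 and 257 in control replicates 1 to 4. After scaling, the LKB1-deficient libraries had 43.6, 42, 45.6 and 54.2 CPM and the controls 10.6, 17.5, 21.9 and 33.4 CPM. The lowest LKB1-deficient library thus lay above the highest control. The mean was 46.3 ± 5.44 CPM in LKB1-deficient and 20.9 ± 9.56 CPM in control cells (SD, n = 4 each), and the log2 fold change was 1.16 ± 0.29 (SE, edgeR adjusted p = 0.0204).

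Both ligand genes ranked the control libraries alike, with control replicate 1 lowest and control replicate 4 highest. Gzmb, encoding the cytotoxic protease granzyme B, had the same ranking, with 3443, 5498, 7041 and 7411 CPM in control replicates 1 to 4, and its LKB1-deficient levels were 7493, 4910, 7248 and 6015 CPM (edgeR adjusted p = 0.725). Gzmb was singled out after its values were seen, and its part in the differences of Lif and Osm was not tested. Without control replicate 1 the log2 fold change was 1.30 for Lif (edgeR adjusted p = 0.0154) and 0.94 for Osm (edgeR adjusted p = 0.0281). Identifiers in the labels begin with ET for both libraries numbered 1 and with EU for the others, and nothing says what the letters stand for. Within the EU libraries the log2 fold change was 1.27 for Lif (edgeR adjusted p = 0.0225) and 0.97 for Osm (edgeR adjusted p = 0.0342), and ET holds 1 library per group, which allows no test. The call of Lif ended without LKB1-deficient replicate 4 (log2 fold change 1.54, edgeR adjusted p = 0.0523), as did that of Osm (1.08, edgeR adjusted p = 0.0644). Without control replicate 3 the call of Osm also ended (1.19, edgeR adjusted p = 0.0514).

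Lif and Osm are separated by 16.53 kb and run in the same direction. Within 200 kb of Lif, 6 of 9 protein-coding genes in the tables were tested, and 2 were called higher, against 12.4% of all tested genes. These were Osm, itself a member, and Sf3a1, which encodes a splicing factor subunit. So few genes cannot tell an effect on the region from this background. Sf3a1 had a mean of 125 CPM in LKB1-deficient and 86.3 CPM in control cells (log2 fold change 0.54 ± 0.11, SE, edgeR adjusted p = 0.011). Its call ended with total count scaling (edgeR adjusted p = 0.0689) and without both LKB1-deficient replicates 2 and 4 (0.0738). Tbc1d10a, which lies between Sf3a1 and Osm, had a log2 fold change of 0.27 ± 0.26 (SE, edgeR adjusted p = 0.458). Ccdc157, Mtfp1 and Rnf215 had log2 fold changes between -0.10 and 0.22 and did not pass the test.

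**Figure D2:**
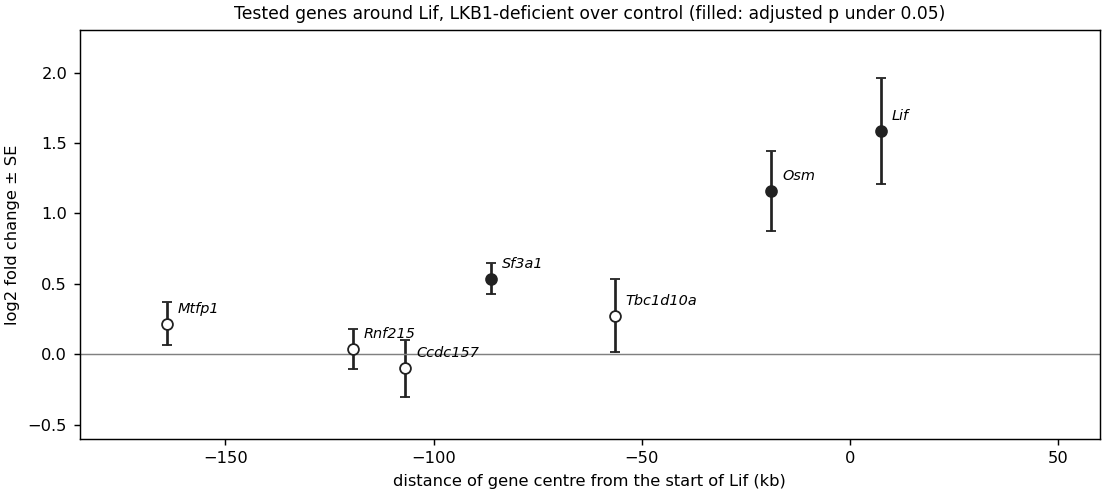
Log2 fold change (LKB1-deficient over control, ± SE) of Lif and of the tested protein-coding genes within 200 kb, against the distance of each gene's centre from the start of Lif in kb, with filled points for adjusted p under 0.05. Lif and Osm stand at 1.58 and 1.16, Sf3a1 at 0.54, and Tbc1d10a between Sf3a1 and Osm at 0.27 is not filled.

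Il6 encodes the founding member of the family, which acts on T cells, hepatocytes and epithelium. The gene lies on chromosome 5 (30013114 to 30019981, plus strand). It had 7, 3, 17 and 9 counts in LKB1-deficient replicates 1 to 4 and 1, 16, 17 and 9 counts in control replicates 1 to 4. These are 1.97, 0.874, 2.68 and 2.43 CPM in LKB1-deficient and 0.0898, 1.3, 1.29 and 1.17 CPM in control libraries, where 1 count was worth 0.157 to 0.291 CPM in the LKB1-deficient and 0.0757 to 0.13 CPM in the control libraries. LKB1-deficient replicate 2 lay below 3 of the controls, so the groups overlapped. The mean log2 CPM (prior count 2) was 1.01 higher in LKB1-deficient libraries (two-sided exact permutation test over 70 splits, p = 0.114, n = 4 each), and 0.48 higher without control replicate 1, which had 1 count (exact permutation p = 0.229). An unfiltered edgeR fit gave a log2 fold change of 1.04 ± 0.56 (SE, adjusted p = 0.232). Over 12 alternatives the exact permutation p lay between 0.0571, with all libraries thinned to equal depth among others, and 0.314.

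Il11, on chromosome 7 (4772373 to 4782859, minus strand), encodes a gp130 cytokine known for its action on stromal and epithelial cells. It had 3, 2, 5 and 3 counts in LKB1-deficient and 2, 12, 11 and 8 counts in control replicates 1 to 4. Its mean level was 0.756 ± 0.118 CPM in LKB1-deficient and 0.757 ± 0.394 CPM in control cells (SD, n = 4 each). The groups overlapped (exact permutation p = 0.971), and the sign of the small difference of 0.11 in mean log2 CPM turned to -0.01 with total count scaling and to -0.26 without control replicate 1. Pooled over libraries, Il11 was at 0.762 CPM in LKB1-deficient cells (95% exact Poisson interval 0.406 to 1.3) and 0.744 CPM in control cells (0.512 to 1.04). These intervals cover counting error only, and PCR copies are not independent molecules. Clcf1, encoding cardiotrophin-like cytokine factor 1, had 0 counts in all 8 libraries, which allows a level of up to 0.176 CPM in the LKB1-deficient group and 0.0676 CPM in the control group (3 counts over the pooled libraries of each group).

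**Figure D3:**
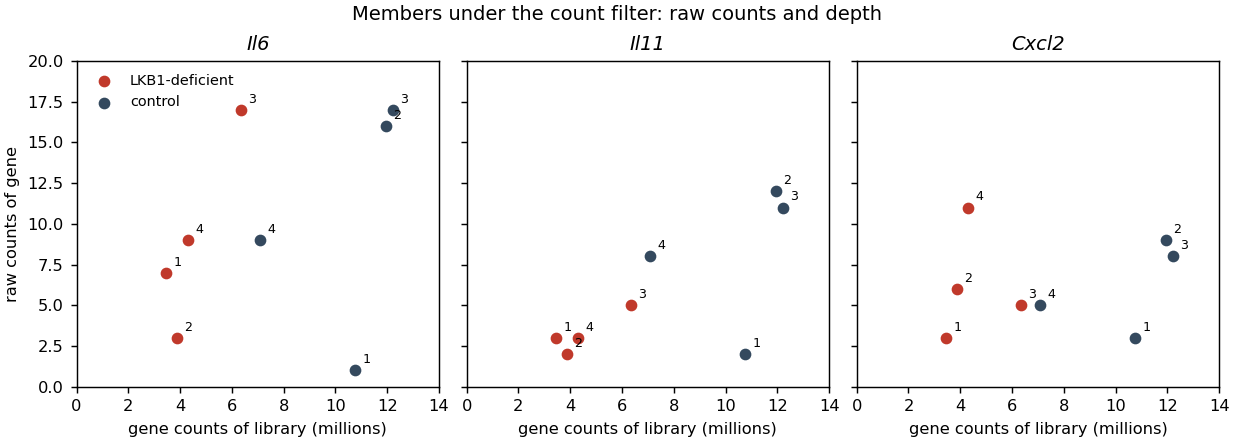
Raw counts of Il6, Il11 and Cxcl2 (vertical) against the gene counts of the library (horizontal), with LKB1-deficient libraries in red and controls in dark, numbered by replicate. No library exceeds 17 counts, and every control lies to the right of every LKB1-deficient library, being more deeply sequenced.

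Among the receptors, Il6ra encodes the alpha chain that binds IL-6 before gp130 joins, and naive T cells carry it. The gene (ENSMUSG00000027947.11) is on the minus strand of chromosome 3, at 89864059 to 89913196. Counts of Il6ra were 29, 43, 71 and 50 in LKB1-deficient replicates 1 to 4 and 74, 58, 48 and 46 in control replicates 1 to 4. This gave 8.16, 12.5, 11.2 and 13.5 CPM in LKB1-deficient and 6.65, 4.71, 3.63 and 5.98 CPM in control libraries. LKB1-deficient replicate 1 was nearest to the controls and the groups did not overlap. Its mean was 11.3 ± 2.32 CPM in LKB1-deficient and 5.24 ± 1.34 CPM in control cells (SD, n = 4 each), with a log2 fold change of 1.12 ± 0.24 (SE, edgeR adjusted p = 0.0127). Its longest transcript has 8639 bases, and with each library's trend on transcript length removed the log2 fold change was 0.64 ± 0.21 (SE, edgeR adjusted p = 0.0628), which ended the call. Within the EU libraries it was 1.38 (edgeR adjusted p = 0.0173).

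The stretch upstream of Il6ra (chr3:89913208-89913446, minus strand, GRCm38.p6) is given beside that of Lif, since both genes moved in the same direction. Capitals mark the match to the cyclic AMP response element core TGACG, here on the opposite strand.
Il6ra: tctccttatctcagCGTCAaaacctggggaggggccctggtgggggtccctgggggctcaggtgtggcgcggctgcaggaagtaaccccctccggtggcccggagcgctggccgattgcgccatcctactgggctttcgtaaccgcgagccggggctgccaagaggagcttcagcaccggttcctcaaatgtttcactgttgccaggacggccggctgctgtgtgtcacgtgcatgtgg
The core was found 1 time, and the other 3 motifs had no match here. The windows of Lif and Il6ra thus shared no match to the 4 motifs.

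Il6st lies on chromosome 13 (112464070 to 112510086, plus strand). Its levels were 13.5, 11.1, 12.3 and 11.1 CPM across the LKB1-deficient libraries, against 20.3, 10.8, 11.4 and 11.4 CPM across the controls. Control replicate 1 was the highest of all libraries and the other 7 lay close together. The mean was 12 ± 1.17 CPM in LKB1-deficient and 13.5 ± 4.56 CPM in control cells (SD, n = 4 each). Its log2 fold change was -0.17 ± 0.23 (SE, edgeR adjusted p = 0.606), turned to 0.10 without control replicate 1 and to 0.04 within the EU libraries, and was -0.62 (edgeR adjusted p = 0.0958) with the length trend removed. Osmr, the receptor chain for OSM on chromosome 15 (6813577 to 6874969, minus strand), had 0 counts in all libraries, with the same upper limits as Clcf1. Lifr, the receptor chain for LIF, also had 0 counts. Transcripts of these chains were thus not detected at this depth, and the upper limits cover counting error only. The T cell marker Cd28 had only 1 count in LKB1-deficient and 21 in control libraries. Few or no counts here therefore need not mean that a gene is silent.

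**Figure D4:**
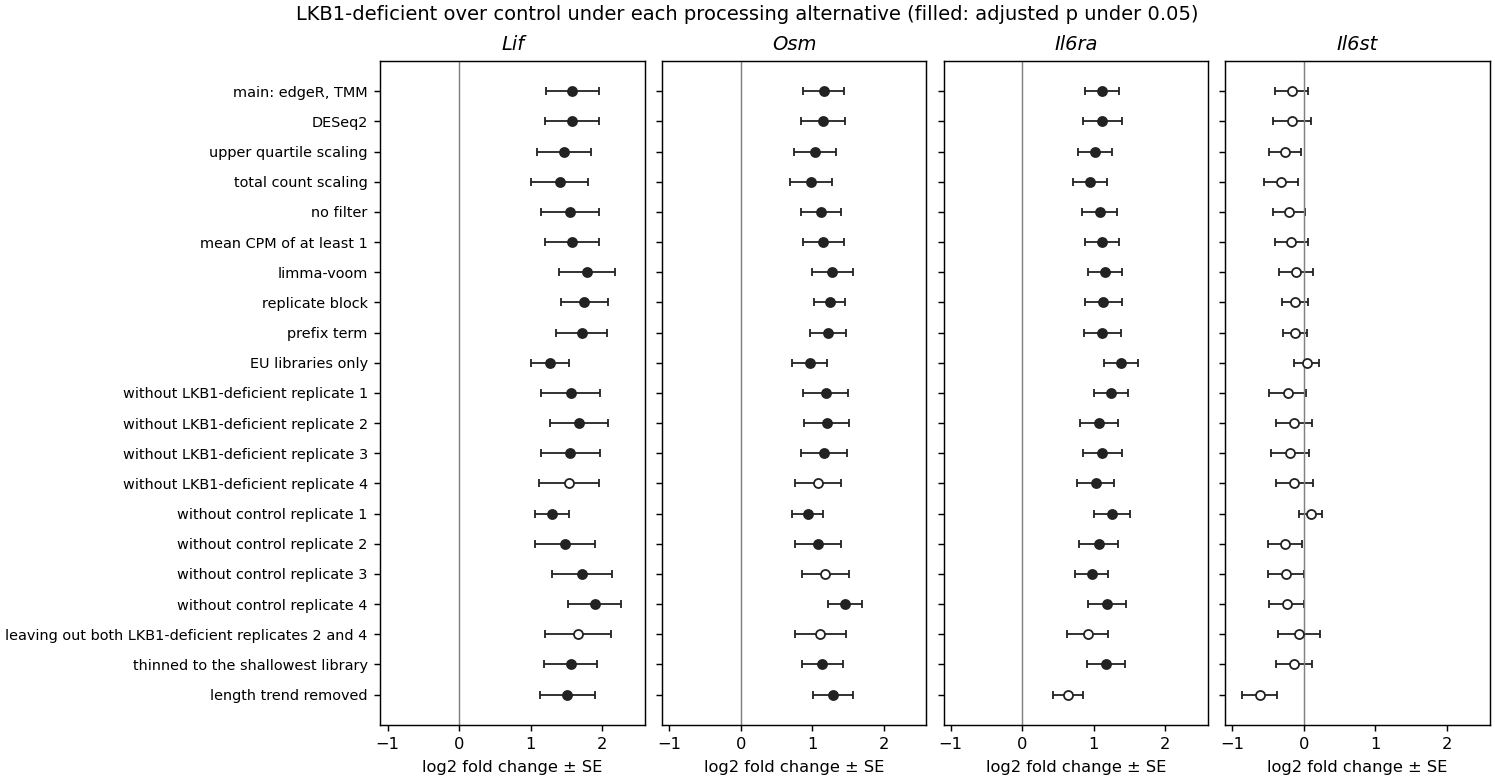
Log2 fold change (LKB1-deficient over control, ± SE) of the 4 tested members under the main analysis and 20 processing alternatives, with filled points for adjusted p under 0.05. Lif stays between 1.27 and 1.90, Osm between 0.94 and 1.47 and Il6ra between 0.64 and 1.38, while Il6st lies on both sides of 0.

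Cxcl2 is not a gp130 cytokine, and its gene lies in a cluster of chemokine genes on chromosome 5 (90903871 to 90905938, plus strand). It had 3, 6, 5 and 11 counts in LKB1-deficient and 3, 9, 8 and 5 counts in control replicates 1 to 4. Its levels of 0.844, 1.75, 0.787 and 2.97 CPM in LKB1-deficient libraries were all above the 0.27, 0.731, 0.605 and 0.65 CPM of the controls. The gap between the lowest LKB1-deficient and the highest control library was less than the worth of 1 count in any library. The mean log2 CPM was 1.04 higher in LKB1-deficient libraries (exact permutation p = 0.0286, the smallest that 4 against 4 libraries can give). This was 1 of 3 genes tested in this way, without adjustment, and the p was 0.0571 with all libraries thinned to equal depth. Without any 1 of the control libraries it was 0.0857 to 0.143 (exact permutation test). The unfiltered edgeR fit gave an adjusted p of 0.1 and DESeq2 an adjusted p of 0.0714. Of 823 genes under the count filter with at least 40 counts in all, 7.78% were likewise higher and 8.02% lower in every LKB1-deficient library.

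LKB1-deficient replicates 2 and 4, which had the most Cxcl2, also had the most RNA of mast cell and basophil markers. The summed level of these markers (8 of 9 with a count, Mcpt4 at 0) was 5.63, 24.8, 9.29 and 20.8 CPM in LKB1-deficient replicates 1 to 4, against 4.58 to 6.05 CPM in controls. Gata2 gave 0.563, 9.62, 2.36 and 8.36 CPM of this in LKB1-deficient replicates 1 to 4, and Cpa3 0.281, 4.08, 1.42 and 3.77 CPM. Mcpt8 had 2.25, 5.83, 2.52 and 2.43 CPM in LKB1-deficient replicates 1 to 4, against 0.898 to 1.87 CPM in controls (edgeR adjusted p = 0.0511). Ms4a2 had 0.944 to 2.43 CPM in LKB1-deficient and 0.26 to 0.53 CPM in control libraries, from 23 and 19 counts. Kit had 0.844 to 3.21 CPM in LKB1-deficient and 1.04 to 1.79 CPM in control libraries. Fewer counts fell on Fcer1a, with 2 in LKB1-deficient and 6 in control libraries, and on Tpsb2, with 4 and 3. Monocyte, macrophage and dendritic cell markers, of which 9 of 10 had a count and C1qa had none, summed to 4.56 to 10.1 CPM in LKB1-deficient and 5.98 to 7.42 CPM in control libraries. Most of this was Cd68, with a mean of 6.01 CPM in LKB1-deficient and 5.38 CPM in control libraries. Of 7 neutrophil markers 2 had a count, S100a8 with 2 counts in LKB1-deficient and 1 in control libraries, and Mpo with 4 and 3. S100a9, Retnlg, Elane, Csf3r and Camp were at 0. The sum was 0.157 to 0.563 CPM in LKB1-deficient and 0.0757 to 0.13 CPM in control libraries. The worth of 1 count alone was 0.157 to 0.291 CPM in LKB1-deficient and 0.0757 to 0.13 CPM in control libraries, so this gap shows no difference in neutrophil RNA. B cell markers (6 of 7 with a count, Pax5 at 0) summed to 4.95 to 10.7 CPM in LKB1-deficient and 7.39 to 13.1 CPM in control libraries. Most of this was Cd79b, with a mean of 4.91 CPM in LKB1-deficient and 9.41 CPM in control libraries (edgeR adjusted p = 0.0164). Ebf1, with 22 counts in LKB1-deficient and 5 in control libraries, and Ms4a1, with 11 and 5, went the other way. NK cell markers (3 of 5 with a count, Klra8 and Klra4 at 0) summed to 1.69 to 2.91 CPM in LKB1-deficient and 2.03 to 2.52 CPM in control libraries. Stromal and epithelial markers (4 of 8 with a count, Col3a1, Pdgfra, Dcn and Krt8 at 0) summed to 1.62 to 9.29 CPM in LKB1-deficient and 7.66 to 15.6 CPM in control libraries. Neither the presence of these cells nor their part in the member levels was tested. Leaving out both LKB1-deficient replicates 2 and 4 kept the direction of Lif, Osm and Il6ra (log2 fold change 1.66, 1.12 and 0.92) and ended their calls (edgeR adjusted p = 0.0928, 0.128 and 0.124).

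Of 15 further IL-6 and IL-12 family ligands and receptors 10 had a count and 5 were tested. Il12rb1, a receptor chain for IL-12 and IL-23, rose to 55.3 ± 7.41 CPM in LKB1-deficient cells, against 37 ± 8.51 CPM in controls (SD, n = 4 each, edgeR adjusted p = 0.043). The groups overlapped. Its call ended with total count scaling (edgeR adjusted p = 0.132) and when LKB1-deficient replicate 1, 2 or 4 or control replicate 1, 2 or 3 was left out (edgeR adjusted p 0.0589 to 0.114). It also ended with upper quartile scaling (edgeR adjusted p = 0.089), within the EU libraries (0.118) and at equal depth (0.0727), among others. No gene of this list was lower with edgeR, also at an unadjusted p under 0.05, or with DESeq2 or limma-voom. Il11ra1, the alpha chain for IL-11, had 1.3 ± 1.04 CPM in LKB1-deficient and 1.59 ± 0.597 CPM in control cells (edgeR adjusted p = 0.774). The chemokine relatives of Cxcl2 were represented by Ppbp and Pf4, the only 2 of 9 that were tested, and neither passed the test with edgeR, also at an unadjusted p under 0.05, or with DESeq2 or limma-voom, while 1 was higher with the length trend removed. Cxcl3, a neighbour of Cxcl2, had 15 counts in LKB1-deficient and 13 in control libraries. These were 3, 4, 5 and 3 counts in LKB1-deficient and 1, 3, 5 and 4 in control replicates 1 to 4. Its level was 0.901 ± 0.178 CPM in LKB1-deficient and 0.308 ± 0.184 CPM in control cells (SD, n = 4 each). The scaled values did not overlap and the raw counts did, and no share over all genes was taken at so few counts. Cxcl3 was named after its values were seen, so the gap is not evidence of a difference. The receptor Cxcr2 had 1 count in each group.

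Of 11 tested kinases, STATs and adaptors below gp130 1 rose and 2 fell (27.3%, against 22.5% of all tested genes, a share near the background), with a median log2 fold change of 0.07, against 0.00 over all tested genes. Stat5a, a STAT of the IL-2 receptor pathway, rose to 269 ± 14.1 CPM in LKB1-deficient cells, against 187 ± 25.1 CPM in controls (SD, n = 4 each, edgeR adjusted p = 0.0233). The Janus kinase gene Jak2 fell to 97.8 ± 5.79 CPM in LKB1-deficient cells, against 125 ± 2.92 CPM in controls (edgeR adjusted p = 0.0404). Jak2 lost its call when any library but LKB1-deficient replicate 3 was left out (edgeR adjusted p 0.0629 to 0.107). It also lost it within the EU libraries (edgeR adjusted p = 0.102), with the replicate block (0.0888) and at equal depth (0.0754), among others. Stat5a lost its call when LKB1-deficient replicate 2 or 4 or control replicate 1, 2 or 3 was left out (edgeR adjusted p 0.0537 to 0.0604), with upper quartile (0.0652) or total count scaling (0.125) and within the EU libraries (0.0702). The median turned to -0.02 with upper quartile scaling, -0.07 with total count scaling and -0.09 with the length trend removed.

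Genes that restrain gp130 receptors were tested as a further list, drawn up with earlier results of these libraries known, so its share is not independent evidence of a direction. Of 11 tested inhibitors and phosphatases 4 rose and 1 fell (45.5%, against 22.5% of all tested genes in either direction), with a median log2 fold change of 0.40. Socs3, the feedback inhibitor that binds gp130, was at 44.2 ± 13.3 CPM in LKB1-deficient and 16.2 ± 1.8 CPM in control cells (SD, n = 4 each, edgeR adjusted p = 0.00341). Socs2, an inhibitor in growth hormone and cytokine signalling, was at 68.9 ± 37.3 CPM in LKB1-deficient and 21.2 ± 3.15 CPM in control cells (edgeR adjusted p = 0.0123). LKB1-deficient replicates 2 and 4 had 93 and 108 CPM of Socs2, against 45 and 29.9 CPM in replicates 1 and 3. They were the libraries with the most mast cell and basophil marker RNA and the lowest TMM factors, and the part of either was not tested. Without both libraries, the log2 fold change of Socs2 was 0.82, against 1.69 with them, and its call ended (edgeR adjusted p = 0.0738). The phosphatase gene Ptpn1 rose to 593 ± 37.9 CPM in LKB1-deficient cells, against 393 ± 61.1 CPM in controls (edgeR adjusted p = 0.0215), and Ptpn6, encoding the phosphatase SHP-1, fell to 259 ± 32.1 CPM, against 405 ± 81.4 CPM (edgeR adjusted p = 0.0269). Without LKB1-deficient replicate 4, and likewise without control replicate 3, 2 rose and none fell, and without control replicate 4 2 rose and 1 fell. With LKB1-deficient replicates 2 and 4 both left out 1 rose. Ptpn1 lost its call without LKB1-deficient replicate 4 or control replicate 3 or 4 (edgeR adjusted p 0.0589 to 0.0743) and with total count scaling (0.0708). Ptpn6 lost its call without LKB1-deficient replicate 2 or 4 or control replicate 2 or 3 (edgeR adjusted p 0.0544 to 0.0791). It also lost it within the EU libraries (edgeR adjusted p = 0.0589) and with the length trend removed (0.0531).

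Of 19 tested genes listed as STAT3 targets 8 rose and 1 fell (47.4%, against 22.5% of all tested genes), with a median log2 fold change of 0.47. Socs3 is among those that rose both here and on the list of gp130 inhibitors, so the shares of these lists are not separate observations. Timp1, a metalloproteinase inhibitor, was at 7.76 ± 3.69 CPM in LKB1-deficient and 0.442 ± 0.215 CPM in control cells (SD, n = 4 each, edgeR adjusted p = 0.00268). Pim1, a survival kinase, was at 203.5 ± 39.9 CPM in LKB1-deficient and 72.4 ± 15 CPM in control cells (edgeR adjusted p = 0.00331). Prdm1, encoding the repressor Blimp-1 of effector lymphocytes, was at 10.8 ± 1.79 CPM in LKB1-deficient and 1.69 ± 0.958 CPM in control cells (edgeR adjusted p = 0.00341). Bcl6, a repressor that opposes Blimp-1, fell to 1.52 ± 0.626 CPM in LKB1-deficient cells, against 4.73 ± 1.82 CPM in controls (edgeR adjusted p = 0.0188). It lost its call without LKB1-deficient replicate 2 (edgeR adjusted p = 0.0536) and within the EU libraries (0.0551). With LKB1-deficient replicates 2 and 4 both left out 5 genes of the list rose. These genes also answer to other signals, and the list was drawn up with earlier results of these libraries known, so its counts are not independent evidence of a direction.

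Among proteins that set the lifetime of Il6 and other cytokine mRNAs, 6 of 10 tested genes rose and 1 fell (70%, against 22.5% of all tested genes), with a median log2 fold change of 0.60 that became 0.24 with the length trend removed. Khsrp, a decay-promoting RNA-binding protein, was at 104 ± 22.3 CPM in LKB1-deficient and 48.4 ± 4.22 CPM in control cells (SD, n = 4 each, edgeR adjusted p = 0.00379). Elavl1, encoding the stabilising protein HuR, was at 121 ± 9.69 CPM in LKB1-deficient and 78.8 ± 4.06 CPM in control cells (edgeR adjusted p = 0.00837). Rc3h1, encoding Roquin-1, which degrades cytokine mRNAs, was at 46.4 ± 11.2 CPM in LKB1-deficient and 22.6 ± 5.27 CPM in control cells (edgeR adjusted p = 0.0118). Zc3h12d, a relative of the Il6-degrading nuclease gene Zc3h12a, fell to 19.9 ± 5.75 CPM in LKB1-deficient cells, against 38.6 ± 13 CPM in controls (edgeR adjusted p = 0.0371). The genes that rose thus included both decay-promoting and stabilising factors. This list too was drawn up with earlier results of these libraries known, so its share is not independent evidence of a direction. With the length trend removed Elavl1 lost its call (edgeR adjusted p = 0.0661) and 3 genes of the list rose, and 3 rose without LKB1-deficient replicate 2 or control replicate 2, 3 or 4, and 4 without LKB1-deficient replicate 4 or control replicate 1. With LKB1-deficient replicates 2 and 4 both left out 1 rose. Zc3h12d lost its call without LKB1-deficient replicate 2 or 4 or control replicate 1, 2 or 3 (edgeR adjusted p 0.0707 to 0.11). It also lost it within the EU libraries (edgeR adjusted p = 0.071) and with limma-voom (adjusted p = 0.0573).

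None of 9 tested genes of NF-kB and C/EBP factors and of the NF-kB regulators Nfkbia and Nfkbiz passed the edgeR test, with 1 higher and 1 lower at an unadjusted p under 0.05, 1 higher with DESeq2 and none with limma-voom. With upper quartile or total count scaling 1 fell, and 1 rose with the length trend removed or without LKB1-deficient replicate 3. The median was 0.14 and turned to -0.02 with total count scaling. Of 4 tested genes that control the shedding of the IL-6 receptor and other surface proteins, 2 rose (50%, against 12.4% of all tested genes higher), and none was lower with edgeR, also at an unadjusted p under 0.05, or with DESeq2 or limma-voom. Rhbdf2, a partner of the protease ADAM17, was at 12.2 ± 3.07 CPM in LKB1-deficient and 4.8 ± 1.13 CPM in control cells (SD, n = 4 each, edgeR adjusted p = 0.00688). Timp3, an inhibitor of ADAM17, was at 21.9 ± 17.3 CPM in LKB1-deficient and 2.59 ± 1.49 CPM in control cells (edgeR adjusted p = 0.0113). Its LKB1-deficient levels were 7.6, 40.2, 6.61 and 33.2 CPM in replicates 1 to 4. It was thus high in libraries 2 and 4, which had the most mast cell and basophil marker RNA and the lowest TMM factors. The part of either was not tested. Without both libraries, the log2 fold change of Timp3 was 1.49, against 3.09 with them, and its call ended (edgeR adjusted p = 0.115). The protease genes themselves did not pass: Adam17 had 76.1 ± 4.58 CPM in LKB1-deficient and 68 ± 8.25 CPM in control cells (edgeR adjusted p = 0.366), and Adam10 had 122 ± 36.6 CPM in LKB1-deficient and 95.6 ± 11.6 CPM in control cells (edgeR adjusted p = 0.198).

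Over the 8 libraries, the level of Lif (log2 CPM) was most like those of Pafah1b2, Adam9 and Orc1 among 7702 genes with a mean of at least 10 CPM (Pearson's r 0.983, 0.98 and 0.979). Osm was most like Orc1, Dennd3 and Havcr2 (r 0.984, 0.977 and 0.976), and Il6ra was most like Tmpo, Taf4b and Rnf125 (each r 0.968). Il6st was most like Tigd2, Oxct1 and Gpr108 (r 0.927, 0.917 and 0.906). Orc1, a subunit of the origin recognition complex, was on the lists of both ligands, with 55.3 ± 2.05 CPM in LKB1-deficient and 41.8 ± 5.84 CPM in control cells (SD, n = 4 each). The libraries include both genotypes and share preparation and depth differences, so these values are a description without a test.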

How the data were processed

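The deposited tables hold whole-number read counts per gene, 1 table per library, which the authors made from strand-specific 3' RNA-seq libraries. Reads were aligned with STAR to mm10, per the submitters' processing notes. The counting program, its annotation and the versions used were not stated in the labels. Each table ends with 5 summary lines, which stayed out of library sizes and tests. Reads assigned to no gene were 14.9% to 17.5% of gene, ambiguous and no-gene reads together in LKB1-deficient libraries and 12.1% to 14.3% in controls. The summary line for alignments that were not unique held 2.21 to 2.65 per gene count in LKB1-deficient libraries and 2.92 to 3.5 in controls. It may count a read more than 1 time and is in no gene's value. The groups did not overlap in either measure, and the part of these differences in the calls was not tested. Depth is given as gene counts per library.

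Counts were tested with edgeR 4.0.16 in R 4.3.3 (filterByExpr with a minimum count of 10, TMM scaling, robust quasi-likelihood fit, Benjamini-Hochberg adjustment over all tested genes, threshold 0.05). Alternatives used DESeq2 1.42.0, limma-voom (limma 3.58.1), other scalings and filters, left-out libraries, equal depth and a lowess correction for transcript length. The test was first run on simulated counts with known changes. Members under the filter were compared by an exact permutation test of log2 CPM (prior count 2). Positions come from GENCODE on GRCm38 and promoter windows from RefSeq on GRCm38.p6.

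The members and gene lists were chosen with earlier results of these data known, so the shares called in them are not independent evidence of a direction. From each list, called genes were named, up to 3 with the smallest p in each direction, and for each tested member the 3 genes of most similar level. Il11ra1, Lifr, Cxcl3, Cxcr2, Adam10, Adam17, Gzmb, Runx3 and Cd28 fall outside that rule and were chosen after their values were seen. So were the single genes with a count that are named from the mast cell, monocyte, neutrophil and B cell marker lists. The values of 1 called list gene are not reported here.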

Additional observations from a re-analysis of the deposited data

Results flagged for a closer look

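Among 14 groups of 4 libraries (7 members in both groups), 3 had a library far from the other 3 by Dixon's test, which flags about 1 group in 20 by chance. Lif was at 109.9 CPM in LKB1-deficient replicate 2, below the other LKB1-deficient libraries. Il6 was at 0.0898 CPM in control replicate 1, which is 1 count, below the other controls. Il6st was at 20.3 CPM in control replicate 1, above the other controls.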

How the results depend on the processing

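Lif, Osm and Il6ra kept their direction under all 20 alternatives to the main test, and the calls that ended are given with each gene. With both LKB1-deficient replicates 2 and 4 left out, 162 genes were higher, 98 lower and 0 members called. At an adjusted p of 0.01 these were 248, 189 and 0. Total count scaling gave 829 higher, and the EU libraries alone 666 lower. With 1 library left out, 560 to 1472 genes were higher, 441 to 1353 lower and 1 to 3 members higher, with 1 when LKB1-deficient replicate 4 was left out. No alternative called a member lower. The log2 fold change of Il6st was 0.040 within the EU libraries and -0.27 to 0.10 with 1 library left out. The difference of Il11 was -0.013 with total count scaling and -0.26 to 0.27 with 1 library left out. The cause of these changes was not tested. Same-numbered libraries deviated from their group means with correlations of -0.25, 0.29, 0.30 and -0.09, and differently numbered ones with -0.37 to 0.34, so the numbers were not taken to pair samples. Libraries of a group were not equally alike by the chi-squared per degree of freedom of their counts. It was 10.9 for LKB1-deficient replicates 2 and 4 and 13.4 for 1 and 3. For control replicates 3 and 4 it was 11.2, and for 1 and 2 it was 23.8. All other pairs within a group had 30.2 to 46.2. The labels do not say why. With the replicate block the log2 fold change was 1.75 for Lif, 1.25 for Osm, 1.14 for Il6ra and -0.12 for Il6st, and no member's call changed. Depth limits Il6, Il11 and Cxcl2, with at most 17 counts per library.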
